A study of Drosophila melanogaster with 13 samples.

Results

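Heads of adult Drosophila melanogaster in which RNA interference (RNAi) against Rab5 was directed to the eye were compared with heads that carried the driver alone. The comparison took every library labelled Rab5 RNAi (n = 5) and every control library (n = 4), 9 of the 13 libraries of the series. It took all genes with a mean of at least 1 FPKM over the 13 libraries, which were 10038 of 18344. FPKM is a read count scaled to gene length and library size. Rab5 RNAi flies had the genotype GMR-Gal4/UAS-Rab5 RNAi and controls GMR-Gal4/WT, so all flies carried the GMR driver. This driver is active in the developing and the adult eye. All were 5 days old and were kept at 25 °C. The study concerns tubulin expression and microtubule assembly in Rab knockdown lines, of which the Rab5 line has a degenerating eye. Sex is not given in the labels. Whole heads hold the brain, fat body, muscle, antennae and cuticle besides the eye, and each value is an average over all of them. The labels do not say whether libraries came from separate crosses, so p-values measure a spread between libraries that may be technical. The other 4 libraries, called Rab7-labelled here, are of the genotype GMR-Gal4/UAS-Rab7 RNAi. They entered the fit, and their levels are given for some genes. There was 1 RNAi genotype against Rab5, so that RNAi and the genetic background of its line cannot be told apart.

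Rab5 is a small GTPase that directs newly formed endocytic vesicles to fuse with each other and with the early endosome, from which cargo is recycled or sent on to the lysosome. In fly photoreceptors the endocytic route takes up light-activated rhodopsin from the rhabdomere, the stack of microvilli that holds the phototransduction machinery. The compound eye also holds pigment cells and lens-secreting cone cells, and photoreceptors signal to the brain with histamine.

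Each library held between 17138630 and 19025418 reads on genes, recovered from the deposited values. Markers of head tissue were present in controls, with means of 33.7 FPKM for the neuronal gene elav, 27.6 FPKM for the glial gene repo, 5.57 FPKM for the odorant co-receptor Orco and 26557 FPKM for the main opsin ninaE. Some libraries stood apart in both groups. Act57B, a muscle actin, had 1541 and 1486 FPKM in Rab5 RNAi 1 and 5 and 1574 FPKM in control 4, and from 667 to 846 FPKM in the other 6 libraries. In Rab5 RNAi 1 and 5 the summed level of the 7 opsins was also lowest, at 1125 and 937.6 FPKM, against 4308, 5447 and 3777 FPKM in Rab5 RNAi 2, 3 and 4 and between 22811 and 31697 FPKM in controls. What sets these libraries apart was not tested. Counts of called list members often depended on the libraries and the scaling. They were recomputed without the 5 libraries of the series in which Act57B was high (added after the data were seen), with plain read totals, and without each library in turn. For the lists counted below, moves of more than 1.5 times that involve at least 2 genes are given beside the count, and moves of 1 gene are not.

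The targeted gene fell. Rab5 (FBgn0014010, 2L) had 115, 112, 113 and 122 FPKM in controls 1 to 4, and 62.8, 54.7, 51.7, 55.1 and 64.5 FPKM in Rab5 RNAi 1 to 5. No value was shared: the highest Rab5 RNAi library was under the lowest control. The log2 difference, here and throughout Rab5 RNAi minus control on the log2(FPKM + 1) scale, was -0.99 (SE 0.09, limma adjusted p = 1.9e-05). Because the driver acts in the eye, the value for the whole head does not give the loss within the eye. In bulk samples, fewer cells of a type and less RNA per cell cannot be told apart.

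In all, limma called 1761 genes (17.5% of those tested) at an adjusted p below 0.05. Of these 829 were higher (8.26% of genes tested) and 932 lower (9.28%). The groups did not overlap for 1869 genes (18.6%). Falls reached further than rises: among called genes 71 fell and 19 rose by at least 2 on the log2 scale, while the median size of the called differences was 0.56 for rises and -0.58 for falls. The median over all tested genes was -0.0075. The split of calls depended on the scaling of the libraries, since 1369 of 2027 calls were higher (67.5%) once plain read totals were used, in place of 47.1%, and the median over all genes was 0.074. Leaving out control 1, 2 or 3 left 539, 535 and 523 higher calls. Without the 5 libraries of the series high in Act57B, 2563 genes were called (1269 higher, 1294 lower). List counts given below for that setting stand against these larger totals. For 5896 of the tested genes (58.74%) the 95% interval of the log2 difference lay within 0.5 of 0.

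**Figure D1:**
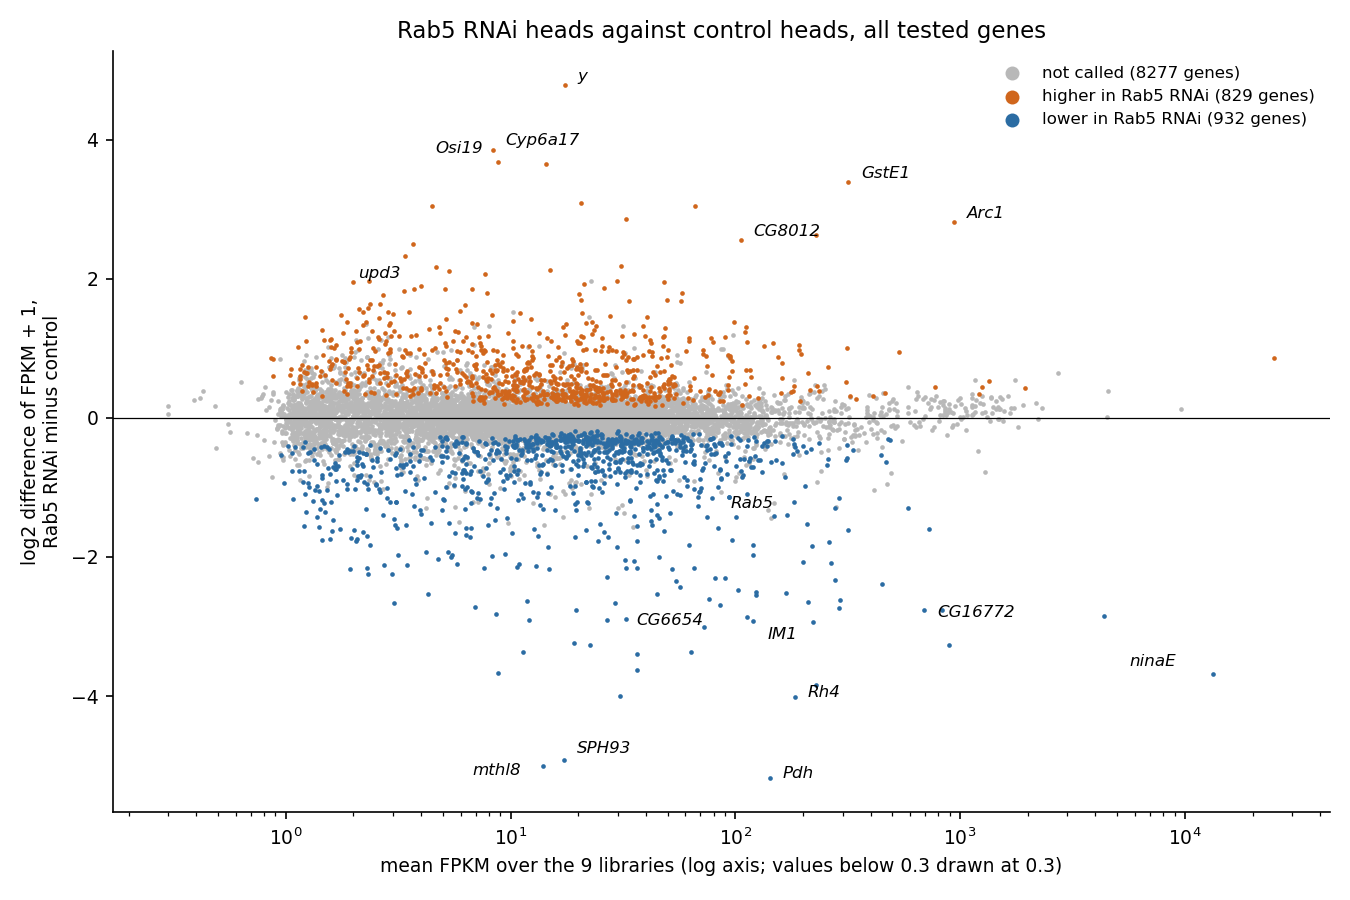
Log2 difference of FPKM + 1 (Rab5 RNAi minus control) against mean FPKM over the 9 libraries, on a log axis, with 1 point for each of 10038 genes. Called genes are coloured by direction (829 higher, 932 lower). Labelled genes include Pdh (-5.18), mthl8 (-5.01) and SPH93 (-4.92) among the falls and y (4.79) among the rises. The 1 added to FPKM limits the size for genes near 0 in a group, and under the alternatives mthl8 reached -11.96 and y 8.297.

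Genes of the photoreceptor and of its light response were the main lower group. Of 7 opsins tested 5 fell and 0 rose, with a median log2 difference of -2.47, and 3 fell with voom on the recovered reads. ninaE encodes Rh1, the rhodopsin of the outer photoreceptors R1 to R6. It had 27650, 30165, 26519 and 21894 FPKM in controls, and 849, 3813, 4918, 3292 and 686 FPKM in Rab5 RNAi. The groups did not overlap, Rab5 RNAi 1 and 5 were lowest, and the difference was -3.69 (SE 0.56, limma adjusted p = 6.9e-04). Opsins as a whole took 3.61% to 4.87% of reads in controls and 0.156% to 0.9% in Rab5 RNAi.

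The opsins of the inner photoreceptors did not move alike. Rh4, an ultraviolet opsin of R7, had a mean of 384 FPKM ± 120.2 (SD, n = 4) in controls and 23.2 FPKM ± 9.21 (SD, n = 5) in Rab5 RNAi. Rh6, the green opsin of R8, had 284, 332, 265 and 248 FPKM in controls and 146, 257, 252, 259 and 129.8 FPKM in Rab5 RNAi. Rh6 overlapped between the groups through Rab5 RNAi 2, 3 and 4, and its difference of -0.49 did not pass (95% interval -0.95 to -0.02, limma adjusted p = 0.14). Rh7, an opsin of the clock neurons and the eye, had a mean of 9.03 FPKM against 8.15 FPKM in controls and did not pass either. Rh2, the opsin of the simple eyes on the top of the head (the ocelli), had 17.4, 19.4, 19.3 and 1.73 FPKM in controls and between 0.195 and 1.34 FPKM in Rab5 RNAi. Its control 4 stood apart from the other controls, yet the groups did not overlap (log2 -2.72, SE 0.52, limma adjusted p = 0.0034). The fall of Rh5, the blue opsin of R8, depended on the libraries (limma adjusted p = 0.041, and up to 0.11 under 8 alternatives, among them leaving out any 1 of controls 1 to 3 or Rab5 RNAi 1 or 5), and the Rh2 call ended with voom on the recovered reads (adjusted p = 0.073).

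Below the opsins, 19 of 28 genes of the phototransduction cascade fell and 1 rose, with a median of -0.82. The arrestin Arr2, which binds and silences activated rhodopsin, had 9077, 9030, 8143 and 6632 FPKM in controls and 631, 1710, 1981, 1734 and 492 FPKM in Rab5 RNAi. The scaffold inaD, which holds channel, lipase and kinase together, fell by 2.91 (log2, SE 0.36), the phospholipase C norpA by 1.82 (SE 0.22) and Gbeta76C, the beta subunit of the visual G protein, by 2.62 (SE 0.27). The channel trp fell by 2.76 (SE 0.37), and its partner trpl fell by 1.61 (SE 0.34). Each of these 6 genes had groups that did not overlap, and Rab5 RNAi 1 and 5 were the lowest libraries for all of them.

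Genes that make and recycle the chromophore fell in 7 of 10 cases and rose in 1. Pdh, a dehydrogenase of pigment cells that works in chromophore recycling, had 275, 277, 236 and 463 FPKM in controls and 6.56, 9.81, 6.46, 10.7 and 4.78 FPKM in Rab5 RNAi. Its level was 40.8-fold lower, the groups lay far apart, and the Rab7-labelled libraries, in which the mean was 272 FPKM ± 91.6 (SD, n = 4), were near the controls. ninaG, an oxidoreductase needed to form the chromophore, fell by 2.15 (SE 0.30). ninaB, the enzyme that cleaves carotenoids, had 64.5, 62, 62.3 and 77.8 FPKM in controls and 35.1, 36.3, 40.9, 51.3 and 34.9 FPKM in Rab5 RNAi, a smaller difference of -0.74 (SE 0.12, limma adjusted p = 0.0011). The member that moved the other way was santa-maria, which takes up carotenoids outside the retina and which rose (0.69, SE 0.19). Its groups overlapped, and its call ended without control 1, 2 or 3 (adjusted p from 0.073 to 0.086).

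**Figure D2:**
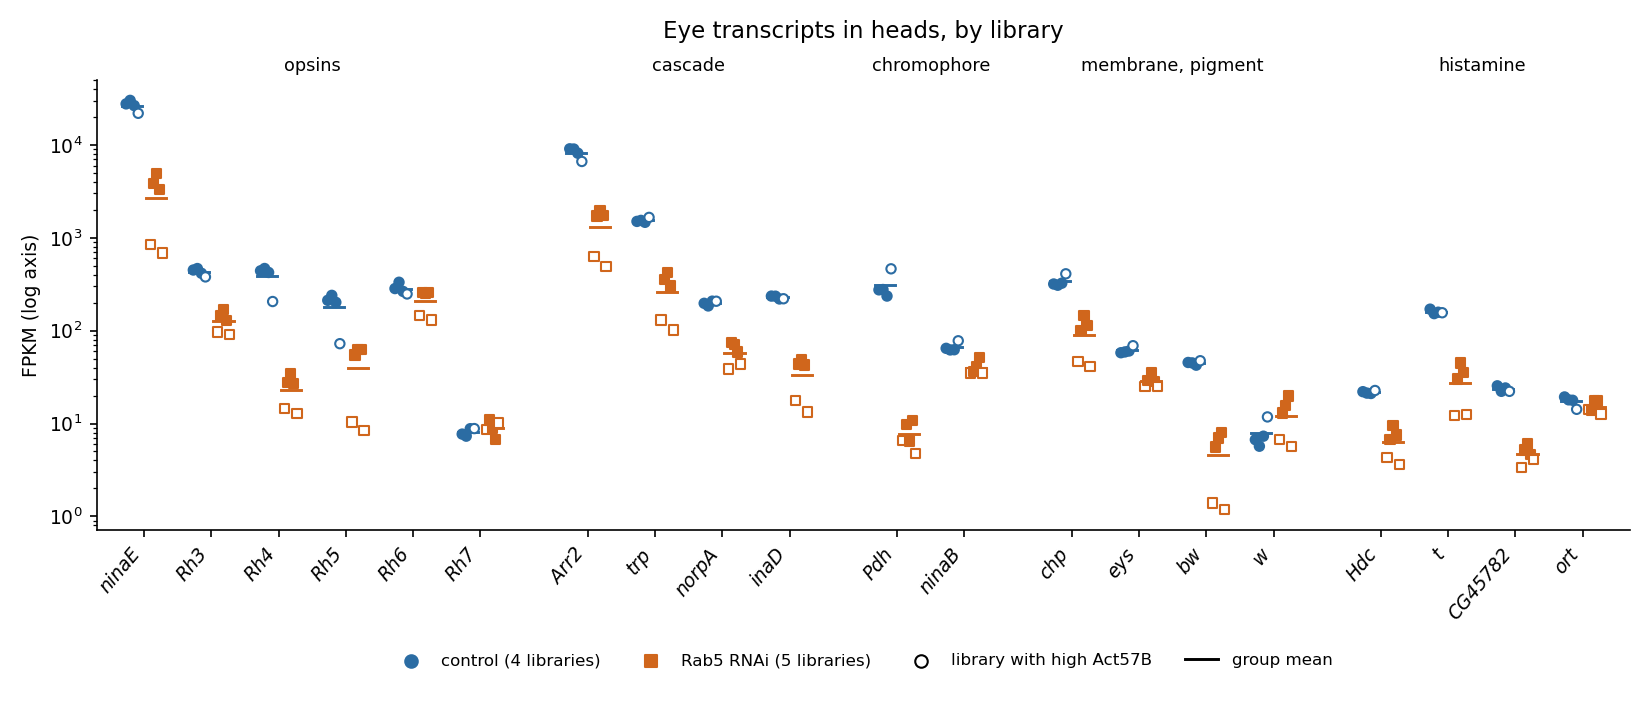
FPKM (log axis) of eye transcripts in each control library (circles, n = 4) and each Rab5 RNAi library (squares, n = 5), with open symbols for libraries high in Act57B and bars at group means. The groups separate for most genes, while Rh6, Rh7, w and ort overlap, and Rab5 RNAi 1 and 5 are lowest for ninaE, Arr2, trp and bw.

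Structural genes of the rhabdomere and stalk membrane fell in 7 of 16 cases and rose in 0. chp, an adhesion protein of rhabdomere microvilli, went from 318, 308, 324 and 409 FPKM in controls to 46.9, 101, 146, 114 and 41 FPKM in Rab5 RNAi (log2 -2.07, SE 0.32, limma adjusted p = 8.4e-04). eys, which fills the space between rhabdomeres, differed by -1.09 (SE 0.09) and prom, which works with it, by -1.61 (SE 0.22). crb, which organises the stalk membrane, had a log2 difference of 0.02 (95% interval -0.24 to 0.28) and did not pass. Of 5 lens genes 2 fell, with Cpr72Ec at a mean of 1.56 FPKM against 23.6 FPKM (log2 -3.36, SE 0.55).

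Pigment genes fell in 4 of 22 cases and rose in 1 (median -0.04). The share called was 22.7%, against 17.5% of all tested genes. The rises were 4 with plain read totals or without Rab5 RNAi 1, 3 without Rab5 RNAi 5 and 6 without the high-Act57B libraries. bw, the transporter that carries red pigment precursors, had 45.4, 45, 42.5 and 47.4 FPKM in controls and 1.39, 5.57, 7.01, 7.99 and 1.18 FPKM in Rab5 RNAi. Rab32, a Rab GTPase needed for pigment granules, had between 57.5 and 63.4 FPKM in controls and between 17 and 38.5 FPKM in Rab5 RNAi (log2 -1.12, SE 0.17). w, the transporter partner of bw, had 6.7, 5.69, 7.3 and 11.8 FPKM in controls and 6.68, 13, 15.5, 19.8 and 5.63 FPKM in Rab5 RNAi. Its groups overlapped and it did not pass (log2 0.48, limma adjusted p = 0.32). Without the high-Act57B libraries w was called higher (adjusted p = 2.5e-04), and 6 pigment genes rose and 5 fell. The mini-white marker of many transgenes is read as w, and what the lines carry is not given in the labels.

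Photoreceptors use histamine as their transmitter. Of 12 genes of histamine transmission 5 fell and 0 rose, with 3 higher with plain read totals and 2 higher without Rab5 RNAi 2. Hdc, which makes histamine, had 22, 21.3, 21.1 and 22.7 FPKM in controls and 4.28, 6.7, 9.59, 7.52 and 3.64 FPKM in Rab5 RNAi (log2 -1.70, SE 0.21, limma adjusted p = 1.9e-04). CG45782, named lovit in RefSeq, loads histamine into synaptic vesicles and had a mean of 4.65 FPKM against 23.5 FPKM. t, the hydrolase that frees histamine after its return to the photoreceptor, fell by 2.70 on the log2 scale (SE 0.38), and CarT, the transporter that brings the conjugate back, by 1.37 (SE 0.28). On the receiving side, the histamine receptor ort of lamina neurons had a mean of 15.2 FPKM against 17.3 FPKM and did not pass (95% interval of the log2 difference -0.50 to 0.14).

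Of 29 tested transcription factors of the retina 4 fell and 2 rose (20.7% called, against 17.5% of all tested genes). Pph13, which drives rhabdomere and opsin genes, differed by -1.23 (SE 0.30), with between 29.4 and 35.7 FPKM in controls and between 6.76 and 19.6 FPKM in Rab5 RNAi. oc, which acts upstream of opsin choice and in the ocelli, differed by -0.76 (SE 0.14). gl, the factor whose binding sites make up the GMR driver, had a mean of 17.8 FPKM against 23.9 FPKM and did not pass (log2 -0.43, limma adjusted p = 0.096; 0.038 without Rab5 RNAi 3).

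Markers of all neurons had a smaller median difference than the opsins or the phototransduction cascade. In whole heads, neurons of the eye and of the brain cannot be told apart. Of 21 pan-neuronal and synaptic vesicle genes 5 fell and 0 rose, with a median of -0.14. The share called was 23.8%, against 17.5% of all tested genes. The falls were 3 with plain read totals and without Rab5 RNAi 1 or 4 or control 1, 2 or 3. nSyb, the synaptobrevin of neurons, had 389, 379, 404 and 355 FPKM in controls and 217, 296, 284, 259 and 236 FPKM in Rab5 RNAi, and the groups did not overlap (log2 -0.57, SE 0.11, limma adjusted p = 0.0042). cpx, which clamps vesicle fusion, differed by -0.60 (SE 0.13). elav, an RNA-binding protein of neuronal nuclei, had a mean of 33.3 FPKM against 33.7 FPKM (95% interval of the log2 difference -0.35 to 0.31).

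Neuropeptide genes rose in 14 of 42 cases and fell in 2 (median 0.18). Rises were 8 or 9 without Rab5 RNAi 2 or 4 or without any 1 control, and falls were 5 and 4 without Rab5 RNAi 1 and 5. Trissin had 67.5, 74.5, 57.9 and 49.3 FPKM in controls and 132, 181, 145, 163 and 121 FPKM in Rab5 RNAi. All Rab5 RNAi libraries were above all controls, and the difference was 1.24 (SE 0.15, limma adjusted p = 1.1e-04). Eh, the eclosion hormone that triggers the shedding of the old cuticle, had 0.306, 0.616, 0.551 and 0.735 FPKM in controls and 4.09, 3.15, 3.84, 7.12 and 3.93 FPKM in Rab5 RNAi, 8.02-fold higher. Its mean in the Rab7-labelled libraries, 3.7 FPKM ± 0.826 (SD, n = 4), was also above the controls. AstC rose by 0.90 (SE 0.11), Mip by 0.82 (SE 0.10) and the satiety peptide Dsk by 0.65 (SE 0.13). Nplp3 fell, from 21.7, 25.1, 21.8 and 30.9 FPKM in controls to 4.95, 5.67, 7.74, 10.7 and 3.46 FPKM in Rab5 RNAi (log2 -1.85, SE 0.24). Pdf, the peptide of the clock neurons, overlapped between groups (log2 -0.13, 95% interval -0.49 to 0.22). Without the high-Act57B libraries 15 neuropeptide genes rose and 9 fell.

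**Figure D3:**
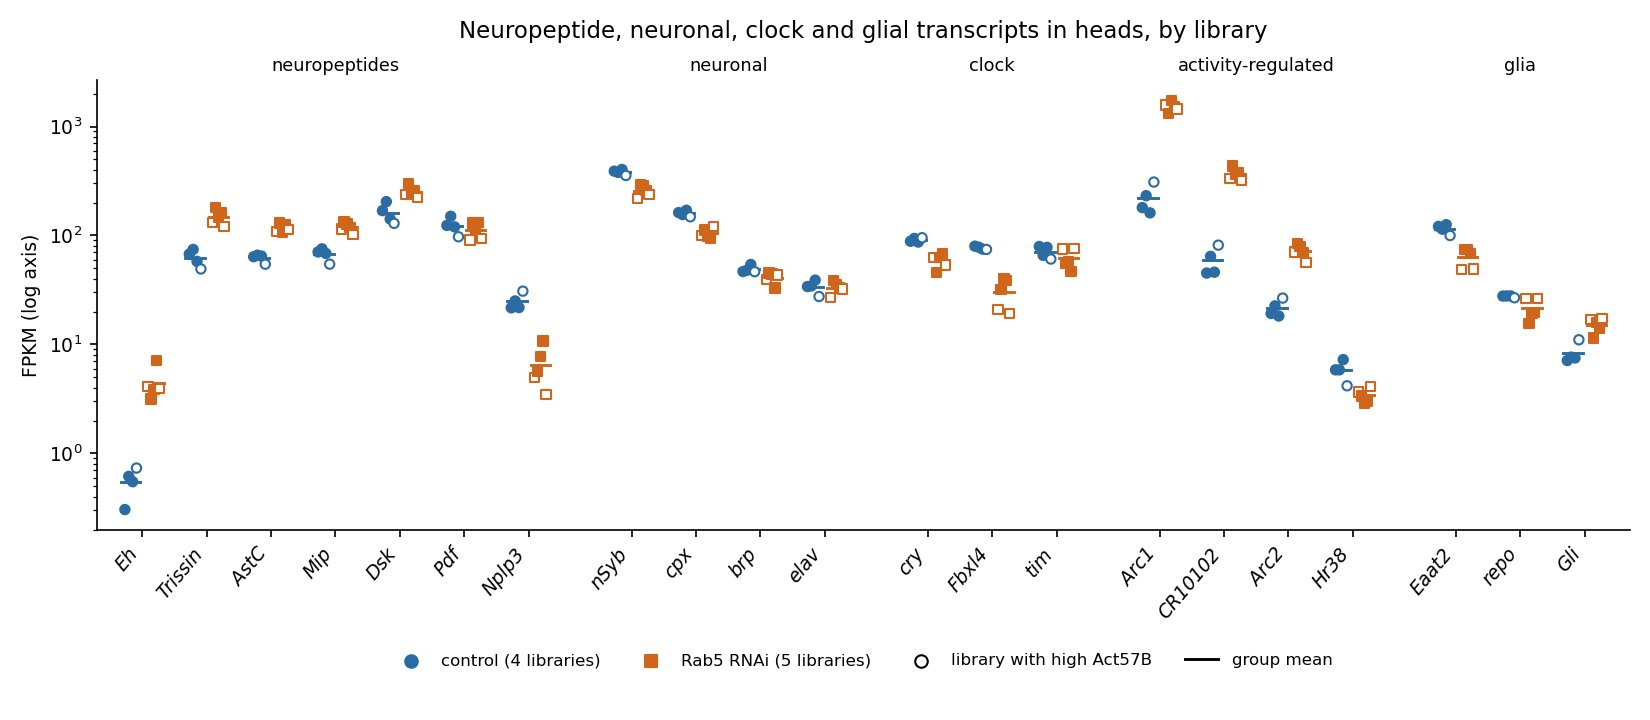
FPKM (log axis) of neuropeptide, neuronal, clock, activity-regulated and glial transcripts in each control library (circles, n = 4) and each Rab5 RNAi library (squares, n = 5), with open symbols for libraries high in Act57B and bars at group means. Trissin, AstC, Mip and Arc1 are higher in every Rab5 RNAi library than in any control, while Pdf, elav and tim overlap.

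Among enzymes of amine transmitters, ple, the tyrosine hydroxylase that starts dopamine synthesis in neurons and cuticle cells alike, had 30.2, 22.4, 23.9 and 35.2 FPKM in controls and 50.6, 86.3, 70.7, 53.8 and 61.3 FPKM in Rab5 RNAi (log2 1.18, SE 0.20, limma adjusted p = 0.0017). Trh, the tryptophan hydroxylase of serotonin neurons, rose by 0.44 (SE 0.09). In the list of fast transmitter and amine genes 2 of 21 rose and 1 fell (14.3% called, against 17.5% of all tested genes). With plain read totals 6 rose, and without the high-Act57B libraries 3 fell.

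Of 17 clock genes 5 fell and 1 rose, with a median of -0.17. Without control 1 or 3 the falls were 3, and with plain read totals 3 rose. cry, the blue-light receptor that resets the clock, had 88.5, 93.9, 87 and 95.4 FPKM in controls and 62.7, 45.9, 62.7, 68.3 and 53.7 FPKM in Rab5 RNAi. The groups did not overlap (log2 -0.64, SE 0.10, limma adjusted p = 0.001). Fbxl4, an F-box gene, had a mean of 30.4 FPKM ± 9.85 (SD, n = 5) against 76.9 FPKM ± 2.55 (SD, n = 4), with Rab5 RNAi 1 and 5 lowest. sgg, a kinase of the clock and of Wnt signalling, differed by -0.48 (SE 0.07). tim, a core repressor whose level follows the time of day, overlapped (log2 -0.20, 95% interval -0.51 to 0.11) and was called lower without the high-Act57B libraries (adjusted p = 0.00797). The time of day at which heads were taken is not given in the labels.

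Arc1 and Arc2, relatives of retrotransposon capsid genes whose RNA is carried between neurons and muscle, rose together with the pseudogene that lies between them. Arc1 had 180.4, 232, 161 and 309 FPKM in controls and 1572, 1311, 1737, 1520 and 1448 FPKM in Rab5 RNAi, 6.88-fold higher (log2 2.82, SE 0.30, limma adjusted p = 5.1e-05). CR10102, the pseudogene, had a mean of 364 FPKM against 59.3 FPKM, and Arc2 of 72.1 FPKM against 21.7 FPKM. These are close copies, so reads may be split between them. Arc1 in the Rab7-labelled libraries had a mean of 576 FPKM ± 288 (SD, n = 4). In the activity-regulated list 5 of 17 genes rose and 3 fell, with 3 higher without control 1 and 5 lower without the high-Act57B libraries. The falls included Hr38, a nuclear receptor induced by firing, with a mean of 3.41 FPKM against 5.79 FPKM (log2 -0.61, SE 0.14).

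Glial genes fell in 6 of 23 cases and rose in 2, and 13 fell and 4 rose without the high-Act57B libraries. In that setting 1294 of the 10038 tested genes fell and 1269 rose. Eaat2, a glial transporter of acidic amino acids, had 121, 114, 126 and 99.9 FPKM in controls and 48.7, 74.6, 74.4, 68 and 49.3 FPKM in Rab5 RNAi (log2 -0.88, SE 0.16, limma adjusted p = 0.0026). repo, the transcription factor of nearly all glia, had 27.8, 27.9, 27.9 and 26.8 FPKM in controls and 26.3, 15.5, 19.2, 19.8 and 26.3 FPKM in Rab5 RNAi, where libraries 1 and 5 lay near the controls. It did not pass (log2 -0.38, limma adjusted p = 0.082) and was called in 5 alternatives (lowest adjusted p 0.0053, without the high-Act57B libraries). Gli, a septate junction protein of glia and epithelia, rose by 0.79 (SE 0.15).

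Odorant binding protein genes fell in 5 of 28 cases and rose in 3, and 9 fell and 5 rose without the high-Act57B libraries. Obp44a, which glia also express, had a mean of 362 FPKM against 873 FPKM (log2 -1.30, SE 0.25). Obp83g rose by 1.17 (SE 0.18).

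Of 32 cuticle protein genes 8 fell and 4 rose, with 9 lower and 8 higher without the high-Act57B libraries and 2 higher without control 1. Cpr76Bc had between 6.64 and 9.72 FPKM in controls and between 0.636 and 2.29 FPKM in Rab5 RNAi (log2 -1.93, SE 0.18), while Cpr51A had between 7.77 and 9.7 FPKM in controls and between 18.5 and 31.2 FPKM in Rab5 RNAi (log2 1.31, SE 0.16). verm, a chitin deacetylase, had 8.91, 8.33, 8.56 and 12.3 FPKM in controls and 40.4, 37, 71.4, 54.8 and 37.4 FPKM in Rab5 RNAi, 5.06-fold higher. Of 7 tested Osiris genes, a family of membrane proteins of cuticle-forming cells, 4 fell and 1 rose. Osi2 had 56.6, 55.7, 53.3 and 44.3 FPKM in controls and 5.41, 7.24, 8.54, 6.93 and 3.54 FPKM in Rab5 RNAi. Osi19 went the other way, from 0.284, 0, 0.146 and 0.0505 FPKM to 6.07, 21.1, 25.9, 19.5 and 6.07 FPKM, with Rab5 RNAi 1 and 5 the lowest of their group. yellow-b, a relative of the pigment gene y, rose by 1.07 (SE 0.15).

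Among detoxification genes, 11 of 32 glutathione S-transferases, which conjugate glutathione to reactive compounds, rose, 1 fell and 20 were not called (median 0.29). GstE1 had 42.7, 45.9, 32.8 and 83.2 FPKM in controls and 404, 529, 719, 656 and 356 FPKM in Rab5 RNAi, 10.4-fold higher (log2 3.39, SE 0.25, limma adjusted p = 4.3e-06). GstD5 had 5.83, 5.29, 4.75 and 4.45 FPKM in controls and 98.1, 21.9, 31.1, 21.7 and 99.8 FPKM in Rab5 RNAi. Its high values were in Rab5 RNAi 1 and 5, the libraries high in Act57B, but the other 3 also lay above every control. GstE12 fell by 0.55 (SE 0.11). GstD1, a common readout of oxidative stress, had 489, 560.3, 434 and 432 FPKM in controls and 538, 699, 858, 811 and 438 FPKM in Rab5 RNAi. Its groups overlapped and it did not pass (log2 0.45, limma adjusted p = 0.11), though 5 alternatives called it higher (lowest adjusted p 0.0039, without the high-Act57B libraries). The family holds close copies in clusters, and reads may be split between them.

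Of 69 cytochrome P450 genes 6 rose and 8 fell, shares near those of all tested genes. Without the high-Act57B libraries 25 fell, while 1294 of the 10038 tested genes fell in that setting. Cyp6a17 was at 0.0935, 0.0314, 0.0963 and 0.0665 FPKM in controls, and at 19.2, 11.8, 11.2, 13.1 and 19.5 FPKM in Rab5 RNAi. The Rab7-labelled libraries had 0.0772 FPKM ± 0.0123 (SD, n = 4), the level of the controls. In the list of oxidative stress genes and targets of the stress regulator cncC, 3 of 26 rose and 2 fell. The share called was 19.2%, against 17.5% of all tested genes. Rises were 6 with plain read totals or without Rab5 RNAi 5, and 1 without control 3. Called members included MTF-1, the metal-responsive transcription factor, higher by 0.59 (SE 0.07).

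Secreted peptides downstream of the Toll receptor formed the second lower group. Toll signalling is started outside the cell by serine proteases that cleave the ligand Spätzle, and it induces antimicrobial peptides in fat body and blood cells. Of 17 Bomanins and other Toll effectors 12 fell and 0 rose, with a median of -2.17, and 14 fell without the high-Act57B libraries. IM14, a short immune-induced peptide, had 87.1, 76.3, 87.5 and 47.4 FPKM in controls and 15.1, 4.23, 2.42, 2.75 and 5.96 FPKM in Rab5 RNAi (log2 -3.62, SE 0.49, limma adjusted p = 3.2e-04). Drs, the antifungal drosomycin, had 511, 528, 568 and 279 FPKM in controls and 33.4, 32.1, 20.4, 52.4 and 24.3 FPKM in Rab5 RNAi. In both genes control 4 was the lowest control and still above every Rab5 RNAi library. The Rab7-labelled libraries ranged widely, at 161 FPKM ± 163 (SD, n = 4) for Drs.

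Effectors of the Imd pathway, which answers to bacterial peptidoglycan, were fewer and mixed, with 2 of 12 lower and 1 higher. Without control 1 or 4 the falls were 0, and without control 4 there were 3 rises. AttC had 82.1, 16.4, 36.6 and 86.7 FPKM in controls and 10.9, 2.53, 2.22, 7.89 and 17.5 FPKM in Rab5 RNAi. The groups overlapped through control 2 and Rab5 RNAi 5 (log2 -2.66, limma adjusted p = 0.017). Def rose, from 12.1, 16.4, 32.2 and 28.8 FPKM to 161, 46.9, 34.5, 41.6 and 144 FPKM, with the high values in Rab5 RNAi 1 and 5 (log2 1.68, limma adjusted p = 0.029). The Def call ended under 8 alternatives, without Rab5 RNAi 1 or 5 or control 1 or 2 among them (adjusted p up to 0.10), and the AttC call ended without control 1 or 4 (0.060 and 0.052).

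Genes that recognise microbes or pass the signal on were higher in 9 of 38 cases and lower in 5. SPH93, a serine protease homologue, had 36.6, 40.8, 46.3 and 31 FPKM in controls and 0.274, 0.245, 0.102, 0.161 and 0.837 FPKM in Rab5 RNAi. It was 119-fold lower, with all Rab5 RNAi libraries under 1 FPKM (log2 -4.92, SE 0.55, limma adjusted p = 8.7e-05). SPE, the enzyme that cleaves Spätzle, had 107, 98.6, 105 and 83.4 FPKM in controls and 67.7, 25.4, 31.7, 33.1 and 59 FPKM in Rab5 RNAi (log2 -1.26, SE 0.25). The Spätzle gene itself, spz, was higher, with between 15.8 and 18.8 FPKM in controls and between 25.3 and 26.7 FPKM in Rab5 RNAi (log2 0.58, SE 0.09). spirit, another protease of the cascade, rose by 1.11 (SE 0.21), IKKbeta, a kinase of the Imd pathway, by 0.53 (SE 0.13) and pirk, an Imd inhibitor, by 0.67 (SE 0.15).

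**Figure D4:**
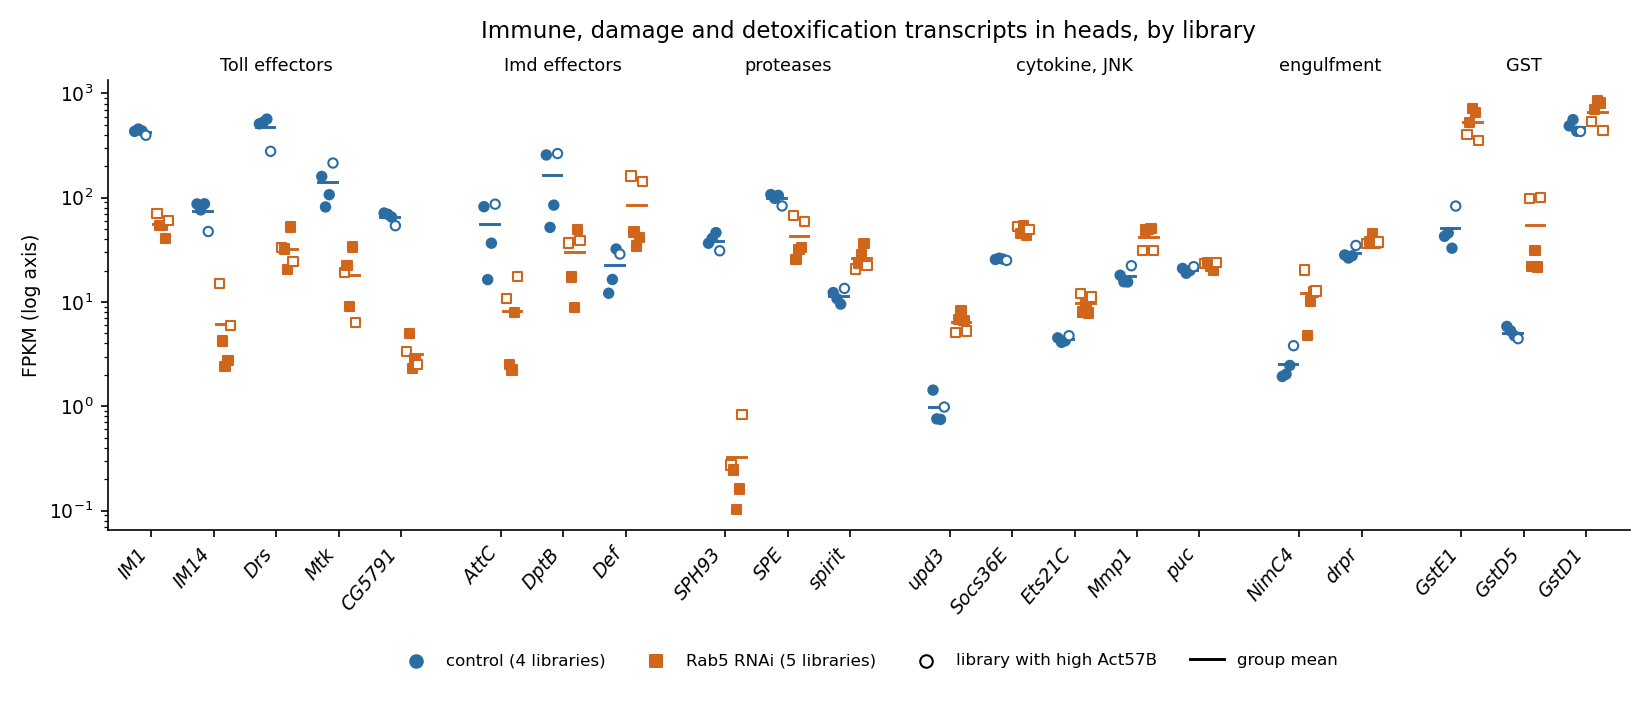
FPKM (log axis) of immune, damage and detoxification transcripts in each control library (circles, n = 4) and each Rab5 RNAi library (squares, n = 5), with open symbols for libraries high in Act57B and bars at group means. IM14, Drs and SPH93 are lower and upd3, Ets21C and GstE1 higher in every Rab5 RNAi library than in any control, while puc and GstD1 overlap.

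Some genes of JAK/STAT signalling were called higher. upd3, a cytokine that activates JAK/STAT signalling after injury, had 1.43, 0.757, 0.748 and 0.983 FPKM in controls and 5.07, 6.82, 8.28, 6.63 and 5.26 FPKM in Rab5 RNAi, 6.55-fold higher (log2 1.90, SE 0.15, limma adjusted p = 7.5e-06). Socs36E, a target and inhibitor of the pathway, had between 25 and 26.3 FPKM in controls and between 44 and 53.5 FPKM in Rab5 RNAi. The complement-like Tep4 rose by 1.16 (SE 0.09) and vir-1, a gene induced by viruses and wounding, by 0.95 (SE 0.15). TotX, a secreted Turandot stress peptide, fell by 2.15 (SE 0.32), and its mean in the Rab7-labelled libraries was 1.63 FPKM, against 2.57 FPKM in Rab5 RNAi and 14 FPKM in controls. In the JAK/STAT and Turandot list 5 of 17 rose and 2 fell (median 0.01). Without the high-Act57B libraries the counts were 7 higher and 6 lower.

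Of 24 genes of TNF and JNK signalling 8 rose and 0 fell, with a median of 0.24. Mmp1, a matrix metalloproteinase that JNK induces, had 18.1, 15.6, 15.6 and 22.3 FPKM in controls and 31.2, 49, 49.4, 51 and 31 FPKM in Rab5 RNAi (log2 1.18, SE 0.16, limma adjusted p = 3.3e-04). Ets21C, a JNK-responsive transcription factor, had between 4.1 and 4.75 FPKM in controls and between 7.84 and 12.2 FPKM in Rab5 RNAi. The filamin cher rose by 0.85 (SE 0.15). puc, the phosphatase that JNK induces to limit itself, had a mean of 22.6 FPKM against 20.4 FPKM and did not pass (95% interval of the log2 difference -0.09 to 0.37).

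In the apoptosis list 4 of 18 genes rose and 2 fell, and rises were 2 without any 1 control. p53 had 5.14, 6.88, 5.99 and 6.16 FPKM in controls and 14.6, 9.01, 8, 9.26 and 11.6 FPKM in Rab5 RNAi (log2 0.68, SE 0.15, limma adjusted p = 0.0072). It overlaps another gene and lies in a run of 4 neighbouring genes called higher. Corp, a regulator and target of p53, rose by 0.66 (SE 0.13). The cell death gene rpr also rose by 0.66 (SE 0.20, adjusted p = 0.040), a call that ended under 12 alternatives, the loss of any 1 control and of Rab5 RNAi 1, 2, 3 or 5 among them (adjusted p up to 0.13).

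Of 26 hemocyte and engulfment genes 3 rose and 2 fell, shares near or under those of all tested genes. Rises were 1 without control 2, and falls were 4 without Rab5 RNAi 1 and 5 without the high-Act57B libraries. NimC4 had 1.93, 2.03, 2.46 and 3.81 FPKM in controls and 20.2, 4.8, 10.2, 12.4 and 12.8 FPKM in Rab5 RNAi (log2 1.79, SE 0.29, limma adjusted p = 0.0011). It encodes the phagocyte receptor Simu and overlaps nAChRalpha5, which had a log2 difference of 0.11. drpr, the engulfment receptor of glia and blood cells, rose by 0.40 (SE 0.10), a call that ended without control 2 (adjusted p = 0.0502). Hml, a clotting protein of blood cells, had a mean of 14 FPKM against 15.1 FPKM and did not pass (95% interval of the log2 difference -0.75 to 0.38).

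Of 18 genes of the cytosolic Hsp70 class and its cochaperones 7 rose and 0 fell. Rises were 4 without Rab5 RNAi 2 or 3 or control 2 or 3, and 11 without the high-Act57B libraries. Hsp68 had 49.4, 35.3, 38.7 and 28.2 FPKM in controls and 82.3, 87.3, 85.3, 82.2 and 69.8 FPKM in Rab5 RNAi (log2 1.11, SE 0.23, limma adjusted p = 0.0059). Of 10 small heat shock protein genes 3 rose and 0 fell, with 5 higher without the high-Act57B libraries. Hsp23 had between 129 and 267 FPKM in controls and between 331 and 494 FPKM in Rab5 RNAi. Hsp83, the Hsp90 of the fly, had 488, 475, 458 and 249.8 FPKM in controls and 249, 683, 765, 723 and 235 FPKM in Rab5 RNAi. The high-Act57B libraries were the low ones in both groups, Hsp83 did not pass (adjusted p = 0.80), and without them it was called higher (adjusted p = 0.0013).

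In the endoplasmic reticulum, 7 of 28 stress and quality control genes fell and 1 rose, a split that did not hold, since 3 fell and 4 rose both without the high-Act57B libraries and with plain read totals. Falls were 4 without control 2 or 4, and rises were 3 without Rab5 RNAi 5. Cnx99A, the calnexin needed for Rh1 folding, had a mean of 148 FPKM against 274 FPKM (log2 -0.97, SE 0.23). Ire1, a sensor of unfolded proteins, had between 30.8 and 34.4 FPKM in controls and between 22 and 28.4 FPKM in Rab5 RNAi (log2 -0.37, SE 0.09; adjusted p = 0.068 with plain read totals). Xbp1, its target, overlapped and did not pass (log2 0.29, limma adjusted p = 0.11; 3 alternatives called it higher, with adjusted p from 0.020). Of 36 proteasome genes 1 rose and 1 fell, but 16 rose without the high-Act57B libraries and 4 without Rab5 RNAi 5. Without the high-Act57B libraries 1269 of the 10038 tested genes rose. Of 34 autophagy genes 0 rose and 1 fell by limma (3 rose with plain read totals), the called gene being Atg6 (-0.34, SE 0.06). The autophagy receptor ref(2)P overlapped (95% interval -0.05 to 0.28).

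Genes of the endosomal route itself were called at a share near that of all tested genes (15.3% against 17.5%). Of 59 endosomal trafficking genes 6 fell and 3 rose, with a median of -0.02, with 8 higher without the high-Act57B libraries, 6 with plain read totals and 1 without control 2. Hrs, the first component of the machinery that sorts ubiquitinated cargo for the lysosome, had 62.8, 61.7, 58.7 and 73.1 FPKM in controls and 26.6, 33.3, 45.4, 40.7 and 26 FPKM in Rab5 RNAi (log2 -0.91, SE 0.15, limma adjusted p = 9.8e-04). lqf, the fly epsin of clathrin-coated pits, had 76.8, 70.3, 78.8 and 56.7 FPKM in controls and 26.4, 36.2, 36.6, 33.3 and 27.3 FPKM in Rab5 RNAi. In both genes all Rab5 RNAi libraries lay below all controls. Syx13, a syntaxin of endosomes, rose by 0.49 (SE 0.10).

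Of 26 Rab genes, Rab5 included, 3 fell and 2 rose (19.2% called, against 17.5% of all tested genes). With plain read totals 6 rose. Rab10, a GTPase of polarised secretion, rose by 0.39 (SE 0.09). Rab7, the GTPase of late endosomes, had between 96.1 and 105 FPKM in controls and at least 106 FPKM in every Rab5 RNAi library. Its groups did not overlap, yet it did not pass (log2 0.18, limma adjusted p = 0.12; 0.017 with plain read totals). Of 29 lysosomal genes 5 fell and 1 rose (20.7% called, against 17.5% of all tested genes). Falls were from 1 to 3 without Rab5 RNAi 2, 3 or 4 or any 1 control (1 without control 1), 2 with plain read totals and 10 without the high-Act57B libraries. Rises were 3 without Rab5 RNAi 5 or control 4, 6 with plain read totals and 7 without the high-Act57B libraries. The vacuolar proton pump, which acidifies endosomes and lysosomes, was higher in 7 of 22 cases and lower in 2, with 4 higher without control 1, 2 or 3. Its subunit Vha68-2 had 81.2, 75.4, 80.6 and 93.5 FPKM in controls and 132, 122, 143, 145 and 127 FPKM in Rab5 RNAi (log2 0.69, SE 0.11, limma adjusted p = 7.8e-04). CG31030, placed in the pump list, differed the other way by -0.77 (SE 0.10).

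Of 9 tubulin genes only betaTub97EF was called. It had 35.2, 37.4, 31.7 and 36.7 FPKM in controls and 24.9, 14.9, 22.3, 22.2 and 20.8 FPKM in Rab5 RNAi, with no overlap. The abundant alphaTub84B had between 759.9 and 868 FPKM in controls and between 654 and 1020 FPKM in Rab5 RNAi (95% interval of the log2 difference -0.24 to 0.33). Of 43 genes of microtubule-associated proteins and motors 5 rose and 4 fell (20.9% called, against 17.5% of all tested genes). Rises were 12 without the high-Act57B libraries, 9 with plain read totals, 2 without control 1 or 2 and 3 without control 3. Called members included milt, a kinesin adaptor of mitochondria, at 0.43, and Ank2, an axonal ankyrin, at -0.63.

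Epithelial junction genes were higher in 14 of 49 cases and lower in 4, with a median of 0.23. Without control 2 there were 9 higher, and the lower count was 1 or 2 with plain read totals or without Rab5 RNAi 2, 3 or 4 or control 1, 2 or 3. sinu, a claudin of septate junctions, had 15.4, 13, 14.8 and 15.3 FPKM in controls and 25.1, 42.1, 35.9, 41.4 and 27.5 FPKM in Rab5 RNAi (log2 1.15, SE 0.15, limma adjusted p = 2.4e-04). pck, another claudin, rose by 0.67 (SE 0.14) and the adhesion protein Fas3 by 0.73 (SE 0.11). Tetraspanins of a cluster on 2R were part of the count, with Tsp42El at 50.7, 51.6, 46.1 and 54.4 FPKM in controls and 94.3, 171, 164, 163 and 94.9 FPKM in Rab5 RNAi. dlg1, a scaffold of junctions and synapses, fell by 0.62 (SE 0.16). In a list of developmental signalling genes 5 of 37 rose and 0 fell. The share called was 13.5%, all higher, against 17.5% called and 8.26% higher among all tested genes. Without the high-Act57B libraries 5 rose and 4 fell. Rises were 2 without control 1 or 2, 3 without control 3 or 4 and 8 with plain read totals. Among the called genes were the ligand Wnt2 (6.31-fold higher, log2 1.86, SE 0.33) and the EGF receptor ligand spi at 0.37 (SE 0.06).

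**Figure D5:**
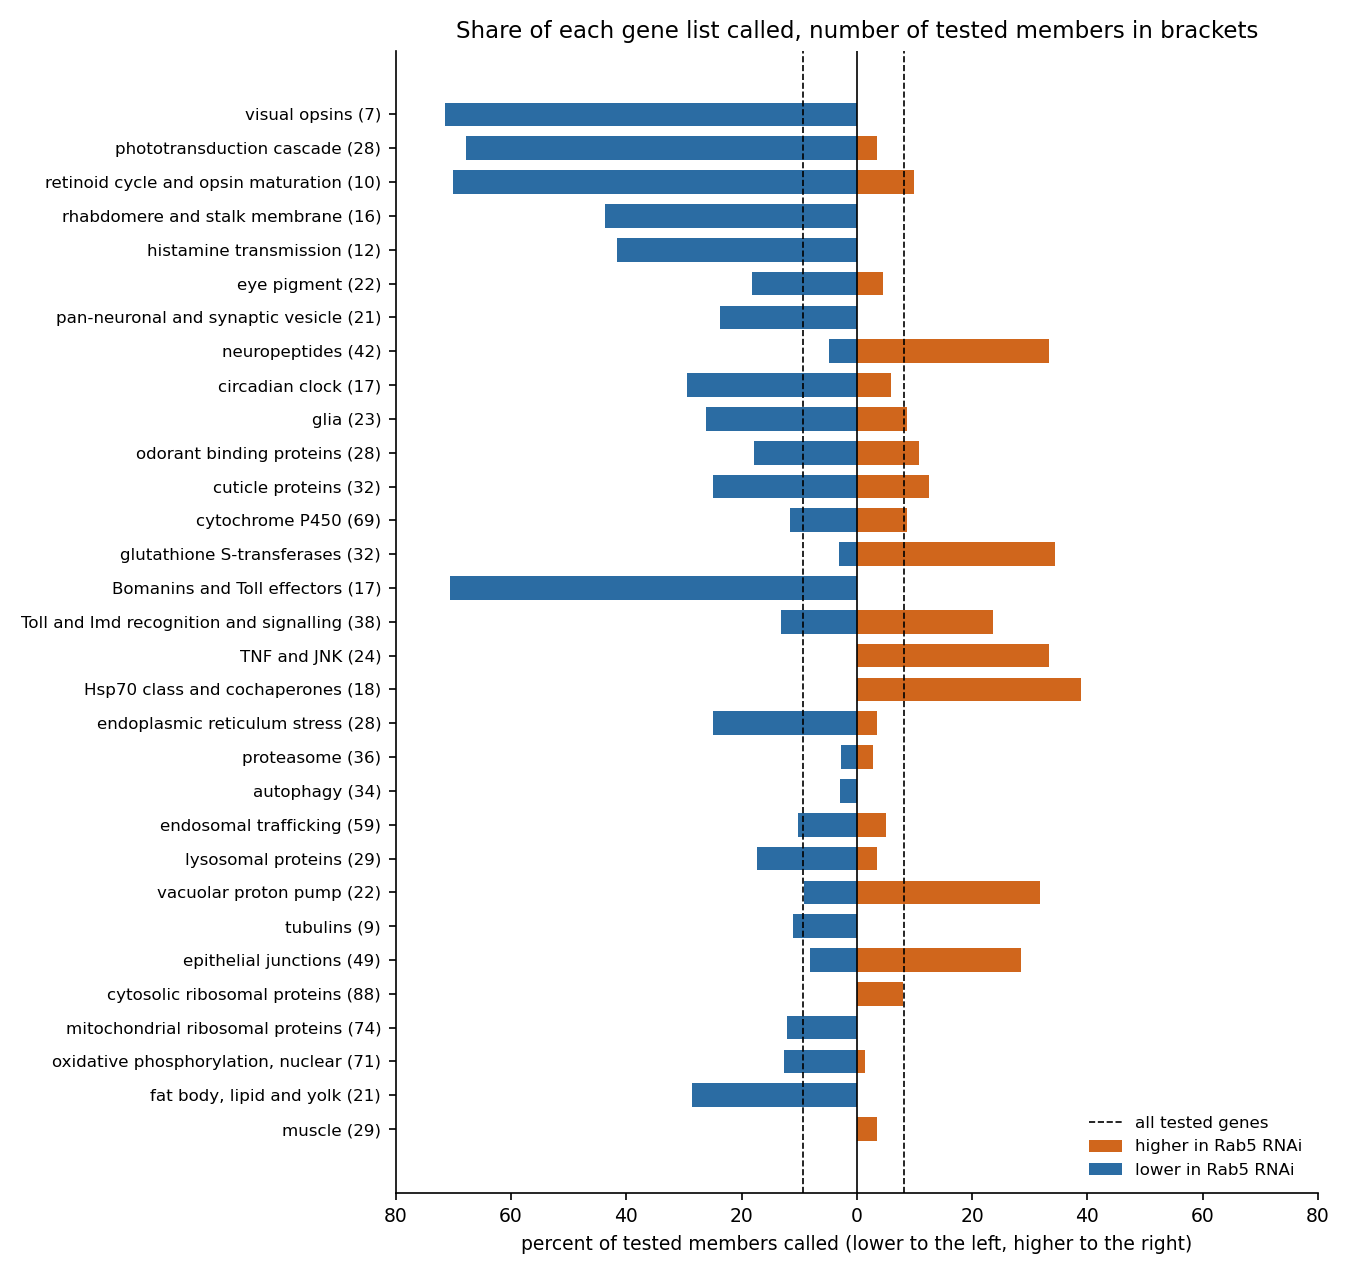
Percent of tested members called lower (left) and higher (right) in Rab5 RNAi for 31 gene lists, with dashed lines at the shares of all tested genes (9.28% lower, 8.26% higher). Most visual lists and Toll effectors extend furthest to the left, and glutathione S-transferases, neuropeptides, Hsp70 class and TNF and JNK genes to the right. Endosomal trafficking lies near or inside both lines, and tubulins and autophagy have no bar to the right.

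Among 71 nuclear-encoded respiratory chain genes 9 fell and 1 rose (14.1% called, against 17.5% of all tested genes). The falls were 1 with plain read totals and 5 without the high-Act57B libraries. Falls were also 4, 2 and 1 without Rab5 RNAi 5, control 1 and control 2. ND-51, a subunit of complex I, had 388, 455, 389 and 352 FPKM in controls and 303, 286, 262, 312 and 267 FPKM in Rab5 RNAi, with no overlap (log2 -0.47, SE 0.09, limma adjusted p = 0.0034). Mitochondrial ribosomal protein genes fell in 9 of 74 cases, with mRpS9 at -0.61 (SE 0.10). The share called was 12.2%, all lower, against 17.5% called and 9.28% lower among all tested genes. The falls were 3 with plain read totals and 2 without control 1 or 2. Cytosolic ribosomal protein genes rose in 7 of 88 cases (7.95%, against 8.26% of all tested genes higher). They rose in 21 cases with plain read totals and in 3 without the high-Act57B libraries. Those rises were from 2 to 4 without Rab5 RNAi 1, 2 or 4 or control 1, 3 or 4. Reads on the mitochondrial genome took 5.87% to 9.84% of reads in Rab5 RNAi and 4.22% to 5.41% in controls, so this share did not overlap between the groups. Yet of its 22 tested genes only 2 rose and 0 fell (9.09% called, against 17.5% of all tested genes). Up to 5 rose with 1 library left out. Their median log2 difference of 0.35 was -0.00045 without the high-Act57B libraries.

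Fat body, lipid and yolk genes fell in 6 of 21 cases and rose in 0, and 15 fell without the high-Act57B libraries. In that setting 1294 of the 10038 tested genes fell. Yp3, a yolk protein made in female fat body, had 47.5, 52.1, 43.5 and 49.1 FPKM in controls and 5.36, 19.3, 22.6, 22.3 and 5.29 FPKM in Rab5 RNAi, where libraries 1 and 5 were lowest (log2 -1.86, SE 0.46, limma adjusted p = 0.015). lncRNA:roX1, a male-specific RNA of dosage compensation, had a mean of 251 FPKM against 250.0 FPKM (95% interval of the log2 difference -0.22 to 0.22). Of 29 muscle genes 1 rose and 0 fell, and 6 fell without the high-Act57B libraries. The muscle gene called was TpnC4, a troponin C of flight muscle, at 0.253, 0, 0.653 and 0.474 FPKM in controls and 7.88, 4.18, 4.65, 5 and 7.51 FPKM in Rab5 RNAi.

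Some genes were far apart between the groups and lay on the same side in the Rab7-labelled libraries. mthl8, a receptor of the Methuselah family, had 34, 30.1, 33.8 and 27.5 FPKM in controls, from 7769 reads, and 0 reads in all 5 Rab5 RNAi libraries. Set against 3 reads over the 5 libraries together, the floor used here, it was at least 3332-fold lower. It was also at 0 in all 4 Rab7-labelled libraries. CG6654 had 65.8, 63.6, 67.2 and 58.2 FPKM in controls and 8.2, 6.55, 8.89, 7.37 and 7.82 FPKM in Rab5 RNAi, with 7.32 FPKM ± 0.367 (SD, n = 4) in the Rab7-labelled libraries. Obp99d, an odorant binding protein, had a mean of 19.2 FPKM in controls, 0.514 FPKM in Rab5 RNAi and 0.0877 FPKM in the Rab7-labelled libraries, and MtnD, a metallothionein, had 6.87, 0.736 and 0.883 FPKM. y, which makes black cuticle pigment and marks many fly stocks, had 0.106, 0.0798, 0.136 and 0.0282 FPKM in controls and 17.7, 38.2, 45.2, 39.2 and 16.7 FPKM in Rab5 RNAi. Its mean in the Rab7-labelled libraries was 11.1 FPKM ± 4.75 (SD, n = 4). Both RNAi groups are compared with the same controls.

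CG42753 had 0.162, 0, 0 and 0.173 FPKM in controls and 7.55, 8.7, 8.81, 6.17 and 8.74 FPKM in Rab5 RNAi, and it was at 0 in the Rab7-labelled libraries. CG8012 had 26.5, 29.2, 25.5 and 27.5 FPKM in controls and 213, 145, 129, 218 and 142 FPKM in Rab5 RNAi, with 25.6 FPKM ± 8.4 (SD, n = 4) in the Rab7-labelled libraries. CG16772 fell from 1298, 1172, 1260 and 1548 FPKM to 203, 159, 205, 183 and 214 FPKM, with 1096 FPKM ± 514 (SD, n = 4) in the Rab7-labelled libraries. The functions of these 3 genes are not given in the files.

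Called genes were spread over the genome. The share called was 17.53% on 2L, 19.2% on 2R, 18% on 3L, 18.91% on 3R, 13.45% on X and 5.769% on the small chromosome 4. In 119 windows of 1 Mb the share ran from 4.55% to 34.3%, with a median of 17%. There were 11 runs of at least 4 neighbouring tested genes called in the same direction, 3 higher and 8 lower, and the longest had 5 genes. The Arc run on 2R (14357927 to 14365473) held Arc1, CR10102, Arc2 and Tfb1, and a run of immune peptides on 2R (18384824 to 18390242) held CG15067, IM2, IM3, CG16836 and CG15065. Coordinates are those of the deposited table. A run on 2L (19960069 to 19965702) held CG16772 and 4 neighbours, all lower.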

How the data were processed

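RNA-seq libraries of 5-day-old heads were made with a SMARTER mRNA-seq kit, each from total RNA (1.3 ug), per the labels' protocols. The submitters' processing notes name CASAVA, with no version or role, and aligner, counter and genome build are not stated there or in the file headers. The deposited per-library values were read as FPKM. Multiplied by gene length, all 182918 values above 0 were whole multiples of 1 read within 0.05 of a read (100%), which gave the depth, and they had been scaled across libraries before deposit. A table of the whole series supplied annotation, and its 13 columns of per-sample values were not used. It lists 591 gene models without a name, and 5 names that had turned into dates were repaired by identifier.

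Genes with a mean of at least 1 FPKM over the 13 libraries were tested on log2(FPKM + 1) with limma 3.58.1 in R 4.3.3 (trend and robust empirical Bayes). All 3 groups entered the fit and shared 1 estimate of the spread, and p-values were adjusted by Benjamini-Hochberg over all 10038 genes at 0.05. Tested on simulated data for this comparison with 10034 genes, the fit recovered 34.3% of genes changed 1.5-fold, 97% of those changed 2-fold and 100% of those changed 4-fold. The simulation used the same setting of spread for every gene and few changed genes, unlike the real libraries. The members and the 61 gene lists were chosen with earlier results of these data known, and some list entries were removed after values were seen because the symbol named another gene. Named genes were the target genes, list members with the lowest p and the genes with the largest changes or lowest p. Others, mainly markers that were not called, were chosen after their values were seen. Alternatives changed the scaling, pseudocount, filter, libraries, covariates and test.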

Additional observations from a re-analysis of the deposited data

Results flagged for a closer look

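Single libraries were set apart from the others of their group in 22 of 285 groups of values tested (7.72%). The rule divides the gap to the nearest value by the range of the group, so small differences can pass. It gives about 1 in 20 for independent values with a normal spread. These were FPKM of genes partly chosen after their values were seen. Control 4 held 15 of the 22. It was the high library for Act57B (1574 FPKM, next 846), ninaG (78.6 FPKM, next 50.7), ninaB (77.8 FPKM, next 64.5), chp (409 FPKM, next 324), prom (43.5 FPKM, next 32.9) and CarT (83.3 FPKM, next 35.7). It was also high for gl (30.2 FPKM, next 22.6), Gli (11 FPKM, next 7.66), verm (12.3 FPKM, next 8.91) and Cnx99A (286 FPKM, next 272).

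Control 4 was the low library for Rh4 (206 FPKM, next 423), Rh2 (1.73 FPKM, next 17.4), Hsp83 (249.8 FPKM, next 458), IM3 (405 FPKM, next 478) and repo (26.8 FPKM, next 27.8). Control 2 was low for rpr, the cell death gene (1.14 FPKM, next 2.03).

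In Rab5 RNAi, library 1 was high for the immune peptides IM14 (15.1 FPKM, next 5.96) and CG15065 (23.7 FPKM, next 6.36), and library 5 was high for SPH93 (0.837 FPKM, next 0.274) and low for Hsp68 (69.8 FPKM, next 82.2). Library 4 was high for Eh (7.12 FPKM, next 4.09) and library 3 for drpr (45.5 FPKM, next 37.7).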

How the results depend on the processing

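The fall of Rab5 was called under all 20 alternatives, with log2 differences from -1.061 to -0.9017. The count of higher genes, 829, was 1369 with plain read totals and 1269 without the 5 libraries high in Act57B, and lower genes were 658 and 1294. Leaving out 1 library at a time gave 1176 to 1778 calls, 523 to 858 higher and 637 to 933 lower. The other alternatives gave from 1425 calls (a mean of at least 5 FPKM) to 2317 (a term for the libraries high in Act57B), and 1697 with voom. The cause of these differences was not tested. No named gene's call changed direction. Of 120 other named genes called, 111 were called under every alternative that tested them (8 of these have a mean under 5 FPKM and were not tested with the stricter filter) and 9 lost the call under at least 1, and 8 genes that were not called passed under at least 1. Among the lost calls, CG16836 had adjusted p-values up to 0.0557. Named genes were mostly picked for a low p or a large change, so these counts do not give the stability of all calls. Of all 1761 calls, 66.4%, 66% and 68.1% were made again without control 1, 2 and 3 in turn. Without 1 of the other Rab5 RNAi or control libraries the share ran from 80.2% to 87.1%. It was 99.8% with a term for the libraries high in Act57B and 84% without those libraries. Replicate numbers are shared by the groups. Deviations of same-numbered libraries correlated at 0.12, 0.122, -0.00319 and -0.0461 for numbers 1 to 4. These values cannot exclude a pairing, and the labels do not state one. With the replicate block 1946 genes were called, 922 of them higher, and 1520 of the 1761 calls (86.3%) were made again. Rab5 RNAi 5 has no partner. The 2 planned count-model tests were not run, because the deposited unit is FPKM. In their place voom was run on the recovered reads, which was not planned. The self-test recovered 34.3% of the 67 genes changed 1.5-fold. Its simulated data had few changed genes, the same setting of spread for every gene and no library set apart. It therefore does not give the share of small changes missed in the real libraries, though such changes may go uncalled.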
